A study of Mus musculus with 12 samples.

Results

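Induction of Flag-tagged myogenin by doxycycline was examined in C2i-Myog cells in the absence of a p38 inhibitor, by setting the 3 arrays of doxycycline-treated cells (Dox) against the 3 arrays of cells given no addition (control). These are 6 of the 12 arrays of the study, and the members are the 19938 genes represented by the 21789 transcript clusters that carry exactly 1 gene symbol, with the brightest cluster standing for each gene. C2i-Myog is a single stable line derived from C2C12, a mouse myoblast line, and carries a doxycycline-inducible cDNA for mouse Myog. Near confluence, cells were moved for 48 h into medium with 1% horse serum, insulin and transferrin (10 µg/mL each), and Dox cells received doxycycline at 0.2 µg/mL from the same moment. The other 6 arrays are of cells that also received SB203580, an inhibitor of p38α and p38β MAP kinases, at 10 µM, without doxycycline (SB) or with it (SB+Dox). The control label itself names no differentiation, and the 48 h are taken from the protocol that accompanies every sample. The study has no group of cells that received doxycycline but lacked the transgene, so an effect of the drug and an effect of added myogenin cannot be told apart.

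Myogenin is a basic helix-loop-helix transcription factor that binds E-boxes as a dimer with E proteins and is switched on when myoblasts commit to differentiation. Myoblasts that differentiate leave the cell cycle, fuse into multinucleated myotubes and express sarcomeric and synaptic genes, while mononucleated reserve cells remain undifferentiated beside them. The p38 MAP kinases act in the same program, in part through MyoD and MEF2 proteins.

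Values are log2 RMA signals, so a difference of 1 is a 2-fold change. The medians of the 6 arrays lay between 4.88 and 4.95, and replicate arrays correlated at 0.992 to 0.996 within control and at 0.993 to 0.995 within Dox. All 10 myotube markers examined (among them Acta1, Ckm, Myh3 and Mymk) had means above the array median, as had 5 of 6 myoblast and reserve-cell markers. The labels do not say whether replicates came from separate cultures, so the p-values measure the spread between these arrays, which may be technical. In a culture of mixed cells, fewer cells of a type and less RNA per cell cannot be told apart.

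The targeted gene came first. Myog read 9.66, 10.18 and 9.89 in control and 10.39, 10.30 and 10.40 with doxycycline. Every Dox array was above every control array, but the difference of 0.46 ± 0.25 (SE, log2, n = 3 per group) did not pass the test (limma, Benjamini-Hochberg adjusted p = 0.467). The endogenous and the added transcript are not separated by this value, and the position of the probes relative to the cDNA is unknown here. The SE rests on the spread within all 4 groups of arrays, including those with SB203580. Over 16 other settings of the limma fit the Myog difference ran from 0.33 to 0.59. Its adjusted p ran from 0.0798 to 0.789, so it was not called in any. Myod1, the factor that precedes myogenin, read 10.37, 10.50 and 9.99 in control and 10.38, 10.56 and 10.23 with doxycycline (difference 0.10, adjusted p = 0.886), with overlapping arrays. Myf5, a determination factor of proliferating myoblasts, read 7.09, 6.77 and 6.68 in control and 5.87, 5.45 and 5.74 with doxycycline. It was 2.23-fold lower (−1.16 ± 0.15 SE, adjusted p = 2.35e-04). Myf6 differed by −0.10 (adjusted p = 0.829) and Mef2c, a cofactor of the MyoD family, by 0.18 (adjusted p = 0.572), and neither passed the test.

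Doxycycline lowered more genes than it raised. A gene was called at a Benjamini-Hochberg adjusted p below 0.05, whatever its fold, and 1096 of 19938 genes were called (5.50%), 297 higher (1.49%) and 799 lower (4.01%). By at least 1.5-fold, 167 rose and 471 fell; by at least 2-fold, 42 rose and 142 fell. The arrays of both groups did not overlap in 1094 of the called genes and in 4044 (20.3%) of all genes tested, and the median change over all genes was 0.00. Over the 21789 clusters the count was 1156 (5.31%), and it dropped to 769 without control replicate 1 and to 744 without Dox replicate 3. Without clusters below the 50th percentile of mean signal it was 1276, so brighter clusters were called at a higher share than 5.31%. The counts for gene lists below stand beside the 5.50%, 1.49% and 4.01% of all genes, which also cover dim genes. Most members of each list had means above the array median, except in the cytokine, interferon, adipocyte, bone, fibroblast and neuronal lists.

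The genes raised most were a mixed set of secreted, membrane and muscle proteins. R3hdml, which encodes a protein with a CAP domain, had the largest rise of the genes named by the rule. It read 5.12, 6.23 and 5.52 in control and 8.54, 9.53 and 8.46 with doxycycline, a 9.29-fold rise (3.22 ± 0.28 SE, adjusted p = 2.16e-05). Anxa8, an annexin that binds phospholipid in the presence of calcium, went from 5.30, 6.45 and 6.92 to 8.71, 8.57 and 9.55, which is 6.59-fold (2.72 ± 0.32 SE, adjusted p = 1.69e-04). The lowest Dox array of either gene stood above the highest control array. C1qtnf3, a secreted C1q-like protein, rose 5.57-fold, from 7.10, 7.85 and 7.14 to 9.43, 10.09 and 10.00 (adjusted p = 1.37e-04). Ctrb1, the precursor of the digestive protease chymotrypsin B, rose 5.44-fold, from 7.47, 8.53 and 7.93 to 10.20, 10.69 and 10.37 (adjusted p = 2.16e-05). Ctrb1 is best known from the exocrine pancreas.

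Cell-surface genes followed. Dsg3, a desmosomal cadherin, rose 5.01-fold, from 4.75, 5.48 and 4.97 to 7.07, 7.51 and 7.60 (adjusted p = 2.16e-05). Htr2b, a serotonin receptor, rose 4.58-fold, from 6.0, 6.67 and 6.15 to 8.17, 8.85 and 8.38 (adjusted p = 9.23e-05). Neither gene's arrays overlapped between groups. Atp1b1, the β subunit of the sodium pump, rose 3.77-fold, from 6.02, 6.91 and 5.99 to 7.98, 8.43 and 8.24 (adjusted p = 2.19e-04). The adhesion receptor Adgrg1 rose 4.08-fold with a wide spread, from 7.72, 8.19 and 6.15 to 8.62, 10.32 and 9.22 (adjusted p = 0.0136). Its call was lost without control replicate 3 or Dox replicate 2 and when only the 6 arrays were fitted, with adjusted p up to 0.0793 over the alternatives.

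Ankrd2, a stretch-responsive ankyrin-repeat protein of the muscle I-band, rose 4.35-fold, from 5.82, 6.18 and 6.09 to 7.21, 8.90 and 8.33 (adjusted p = 7.62e-04). Adamtsl2, a secreted glycoprotein that binds microfibrils, rose 3.89-fold, from 5.48, 5.83 and 5.51 to 7.05, 8.01 and 7.64 (adjusted p = 5.21e-05). Both genes had 3 Dox arrays that spread more widely than the 3 control arrays. Serpinb9e, one of a cluster of similar serine protease inhibitors, rose 3.74-fold (adjusted p = 9.56e-05), and the serine protease gene Prss46 rose 3.62-fold (adjusted p = 0.00161). Probes for Serpinb9e may also read its near-identical relatives, which was not tested. Rrad, a small GTP-binding protein that restrains voltage-gated calcium channels, rose 3.13-fold, from 6.35, 6.62 and 6.11 to 7.82, 8.74 and 7.45 (adjusted p = 5.22e-04).

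**Figure D1:**
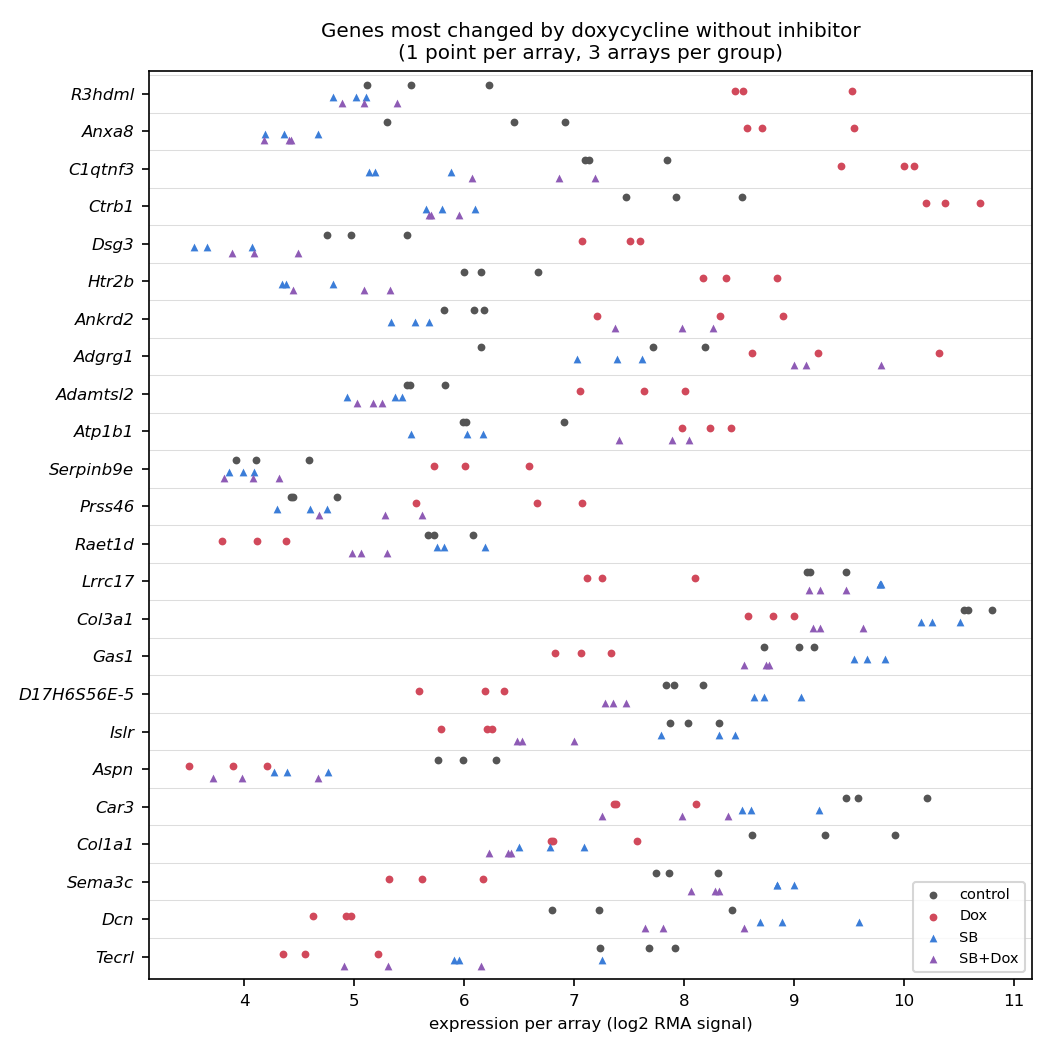
Log2 RMA signal of the 12 most raised and the 12 most lowered genes on each of the 12 arrays, with circles for control and Dox and triangles for the groups with SB203580. Dox circles lie right of every control circle in the upper 12 genes and left of them in the lower 12, while the SB+Dox triangles of R3hdml, Anxa8 and Ctrb1 lie beside the SB triangles.

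The start regions of some of these genes hold the E-box letters that myogenin is known to bind. The sequences shown are the 250 bases before the RefSeq start (GRCm38.p6) of 4 strongly raised genes, picked among those whose windows hold CAGCTG or CAGGTG. They are printed in lower case with each CANNTG in capitals, read on the gene's strand. They come from chr8:111691011-111691260 (Ctrb1, minus strand), chr1:86111981-86112230 (Htr2b, minus strand), chr2:27079129-27079378 (Adamtsl2, plus strand) and chr19:42035777-42036026 (Ankrd2, plus strand).
Ctrb1: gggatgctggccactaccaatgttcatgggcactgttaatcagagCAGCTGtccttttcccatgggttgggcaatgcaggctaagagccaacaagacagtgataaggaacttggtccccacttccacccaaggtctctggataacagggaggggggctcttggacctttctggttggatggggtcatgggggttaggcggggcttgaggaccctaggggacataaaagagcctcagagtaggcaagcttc
Htr2b: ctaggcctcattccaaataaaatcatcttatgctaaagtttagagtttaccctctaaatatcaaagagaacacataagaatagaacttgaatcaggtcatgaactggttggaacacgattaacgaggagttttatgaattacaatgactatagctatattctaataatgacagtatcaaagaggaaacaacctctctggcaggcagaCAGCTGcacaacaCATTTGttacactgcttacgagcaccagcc
Adamtsl2: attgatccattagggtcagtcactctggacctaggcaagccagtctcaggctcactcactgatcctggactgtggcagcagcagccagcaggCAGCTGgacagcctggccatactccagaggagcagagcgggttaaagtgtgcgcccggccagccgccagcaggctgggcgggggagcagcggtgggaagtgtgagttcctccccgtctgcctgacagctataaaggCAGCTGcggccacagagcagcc
Ankrd2: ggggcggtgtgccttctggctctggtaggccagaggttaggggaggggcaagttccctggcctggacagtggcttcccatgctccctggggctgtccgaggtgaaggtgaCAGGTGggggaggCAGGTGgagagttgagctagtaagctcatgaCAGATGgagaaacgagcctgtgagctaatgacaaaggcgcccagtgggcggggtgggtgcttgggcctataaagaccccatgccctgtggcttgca

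Ctrb1 had CAGCTG at −205 to −200 from the start, Htr2b at −43 to −38, and Adamtsl2 at −158 to −153 and −22 to −17. Ankrd2 had CAGGTG at −140 to −135 and −127 to −122. A promoter entry was matched by symbol for 15614 of the genes tested, and letters were sought on both strands (both of these E-boxes are special cases of the general one). Of these promoters 12.2% held CAGCTG, and it was present in 18.1% of the 226 called higher, in 28.1% of the 32 called higher by at least 2-fold and in 14.2% of the 632 called lower. Among the 103 called lower by at least 2-fold it was in 11.7%. CAGGTG was present in 16.6% of those tested, in 21.2% of those called higher and in 9.02% of those called lower. The general E-box CANNTG was in 61.8% of those tested and in 61.1% of those called higher. Of the other patterns searched, TGANTCA was in 6.11% of those tested and 5.75% of those called higher, GGAATG in 11.3% and 12.4%, the MEF2 site in 0.493% and 1.33%, and the CArG box in 1.25% and 0%. CCAAT was in 35.5% of those tested, 44.7% of those called higher and 42.1% of those called lower, and TTTGAA in 13.7%, 7.52% and 15.7%. The R3hdml window held CATTTG and CAGATG but no CAGCTG, and the C1qtnf3 window held only CAACTG. The windows of Anxa8, Atp1b1, Serpinb9e and Prss46 held no CANNTG. These are matches of letters in a short window, not measured binding.

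The genes lowered most included proteins of the endoplasmic reticulum, the cytosol, the membrane and the matrix. Tecrl, an enoyl-CoA reductase-like protein of the endoplasmic reticulum in heart and skeletal muscle, read 7.92, 7.68 and 7.24 in control and 5.22, 4.35 and 4.55 with doxycycline. It was 7.48-fold lower (−2.90 ± 0.36 SE, adjusted p = 1.99e-04). Dcn, encoding the collagen-binding proteoglycan decorin, fell 6.26-fold, from 7.23, 6.80 and 8.44 to 4.63, 4.93 and 4.97 (−2.65 ± 0.34 SE, adjusted p = 3.00e-04). The control arrays of Dcn were spread over more than a log2 unit, and each was above the Dox arrays. Sema3c, a secreted guidance factor, fell 4.83-fold, from 7.86, 7.75 and 8.31 to 5.62, 5.32 and 6.17 (adjusted p = 1.35e-05). Car3, the carbonic anhydrase abundant in slow muscle and fat, fell 4.40-fold, from 10.21, 9.58 and 9.47 to 8.11, 7.38 and 7.36 (adjusted p = 3.64e-04). Aspn, encoding the small leucine-rich proteoglycan asporin, fell 4.41-fold, from 6.29, 5.99 and 5.76 to 4.21, 3.90 and 3.5 (adjusted p = 9.31e-05).

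The remaining genes of this group were lower by 3.31- to 3.99-fold apart from the collagens described with the matrix list. Islr, a leucine-rich repeat protein of mesenchymal cells, fell 3.99-fold, from 8.04, 8.32 and 7.87 to 5.79, 6.25 and 6.21 (adjusted p = 3.15e-05). Gas1, a membrane-anchored protein first described in growth-arrested fibroblasts, fell 3.76-fold, from 9.18, 9.05 and 8.73 to 7.34, 7.06 and 6.83 (adjusted p = 9.20e-06). Lrrc17, a secreted leucine-rich repeat protein, fell 3.38-fold (adjusted p = 1.16e-04), D17H6S56E-5 fell 3.80-fold (adjusted p = 2.16e-05), and Raet1d, a ligand of the NKG2D receptor, fell 3.31-fold (adjusted p = 3.10e-05). For each of these genes the arrays of the groups did not overlap. Among other called genes picked after their values were seen, the gap-junction gene Gja1 fell 3.25-fold (adjusted p = 9.20e-06) and Fscn1, which bundles actin in protrusions, fell 2.77-fold (adjusted p = 5.89e-06).

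Cell-cycle genes fell together. Of 32 measured genes of the G2 and M phases, 31 fell and 0 rose (32 and 0 at an unadjusted p under 0.05 in limma), with a median of −0.92 against 0.00 over all genes; 24 to 28 of them were called when 1 of the 6 arrays was left out. The mean of the list lay between 5.97 and 6.40 on control arrays and between 5.10 and 5.28 on Dox arrays, so the groups did not overlap. Top2a, the topoisomerase that untangles replicated chromosomes, fell 3.16-fold, from 6.70, 7.54 and 7.07 to 5.53, 5.47 and 5.32 (adjusted p = 1.23e-04). Ccna2, which encodes cyclin A2, fell 2.93-fold, from 7.28, 7.92 and 7.62 to 6.04, 6.20 and 5.92 (adjusted p = 1.35e-04). The control arrays of both genes varied more than the Dox arrays. Another cluster of Top2a differed by −0.39 and was not called (adjusted p = 0.485). Kif11, the motor that separates spindle poles, fell 2.74-fold (adjusted p = 2.41e-04), and the checkpoint kinase gene Bub1 fell 2.44-fold (adjusted p = 0.00205). The proliferation marker Mki67 fell 2.38-fold, from 6.64, 7.08 and 6.52 to 5.51, 5.80 and 5.19 (adjusted p = 6.71e-04), and the mitotic kinase gene Plk1 fell 2.28-fold (adjusted p = 0.00201). Cdc20, an activator of the anaphase-promoting complex, was the uncalled member at −0.30 (adjusted p = 0.169).

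DNA replication genes moved the same way with 1 exception. Of 31 measured, 25 fell and 1 rose, with a median of −0.74, and 19 to 23 were lower when 1 array was left out. Mcm3, a subunit of the replicative helicase, fell 2.98-fold, from 7.67, 7.78 and 7.80 to 6.31, 6.40 and 5.82 (adjusted p = 1.02e-04). Its partners Mcm5 and Mcm6 fell 2.43-fold and 2.23-fold (adjusted p = 3.43e-04 and 4.21e-05), and Uhrf1, which guides maintenance methylation of DNA, fell 2.53-fold (adjusted p = 1.88e-04). The exception was Rrm2, the small subunit of ribonucleotide reductase that supplies deoxynucleotides in S phase. Rrm2 read 7.60, 8.03 and 7.51 in control and 8.66, 8.64 and 8.26 with doxycycline, a 1.75-fold rise (0.81 ± 0.16 SE, adjusted p = 0.00641), with no overlap. The large subunit gene Rrm1 went the other way, at −0.61 (adjusted p = 0.0161).

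Of 20 measured regulators of cell-cycle exit, 1 rose and 5 fell (30.0% called), with a median of −0.10, and 16 had a difference below 0. Ccnd1, encoding the G1 cyclin D1, fell 2.53-fold, from 7.77, 7.49 and 8.07 to 6.51, 6.44 and 6.37 (adjusted p = 1.27e-04). Its partner kinase genes Cdk4 and Cdk6 were lower by 1.38-fold and 1.45-fold (adjusted p = 0.00402 and 0.00557). The pocket-protein gene Rbl1 fell 2.02-fold (adjusted p = 1.87e-04) and the inhibitor gene Cdkn2d fell 1.61-fold (adjusted p = 0.00385). Gadd45b, a stress-induced regulator, rose 1.73-fold (adjusted p = 0.0116), which did not hold without Dox replicate 2 or when only the 6 arrays were fitted (adjusted p up to 0.0645 over the alternatives).

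The start regions of the lowered cell-cycle genes are shown for Top2a and Mki67 because both hold CCAAT, the letters bound by NF-Y, and TTTGAA, the letters of the cell-cycle homology region. Both are on the minus strand, at chr11:99024190-99024439 (Top2a) and chr7:135716380-135716629 (Mki67) of GRCm38.p6, with these letters and their reverse complements in capitals.
Top2a: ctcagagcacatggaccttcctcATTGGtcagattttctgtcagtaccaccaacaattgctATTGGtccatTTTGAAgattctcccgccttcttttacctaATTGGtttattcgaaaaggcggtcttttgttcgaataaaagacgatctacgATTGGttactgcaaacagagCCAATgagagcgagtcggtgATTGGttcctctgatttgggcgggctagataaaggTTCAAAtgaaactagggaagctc
Mki67: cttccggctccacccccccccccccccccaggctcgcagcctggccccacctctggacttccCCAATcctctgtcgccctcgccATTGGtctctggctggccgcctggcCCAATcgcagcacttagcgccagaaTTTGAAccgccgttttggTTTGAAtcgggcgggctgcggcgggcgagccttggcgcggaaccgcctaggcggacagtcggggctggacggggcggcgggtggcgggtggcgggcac

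CCAAT was present in 76% of the 25 G2 and M promoters matched, in 61.5% of the 26 replication promoters matched and in 35.5% of the promoters of all genes tested. TTTGAA was present in 36%, 15.4% and 13.7%. Among genes called higher, CCAAT was in 44.7% and TTTGAA in 7.52%, so CCAAT was above its share over all genes tested among raised genes too. Both patterns were chosen after the list was seen to fall. They describe these windows, and binding was not measured.

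Genes of the extracellular matrix fell more often than they rose. Of 38 measured, 13 fell and 3 rose, against 4.01% of all genes called lower and 1.49% called higher. The median was −0.20, and 33 of the 38 had means above the array median, whereas these shares also cover dim genes. The list mean was 7.89 to 7.99 on control arrays and 7.51 to 7.60 on Dox arrays. The rises numbered 5 without control replicate 2. Col1a1, a chain of fibril-forming type I collagen, fell 4.64-fold, from 8.62, 9.28 and 9.92 to 6.79, 6.81 and 7.57 (adjusted p = 1.87e-04). Col1a2, the other chain of that collagen, fell 1.75-fold, from 11.21, 11.20 and 11.35 to 10.48, 10.39 and 10.46 (adjusted p = 0.00127). The estimated change of Col1a1 was larger, and its control arrays were more spread. Col3a1, of type III collagen, fell 3.59-fold, from 10.58, 10.55 and 10.80 to 8.81, 8.58 and 9.0 (adjusted p = 9.20e-06). The type VI chains Col6a1 and Col6a3 fell 2.30-fold and 2.02-fold (adjusted p = 4.01e-05 and 4.92e-04), the proteoglycan gene Vcan fell 2.86-fold (adjusted p = 1.70e-04), and the basement membrane linker gene Nid2 fell 2.36-fold (adjusted p = 0.00105).

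The 3 matrix genes that rose were Col18a1, Col11a1 and Postn. Col18a1, a basement membrane collagen, rose 1.95-fold, from 7.45, 7.83 and 7.82 to 8.59, 8.84 and 8.57 (adjusted p = 0.00218). Col11a1, a minor fibrillar collagen, rose 1.54-fold (adjusted p = 0.00251), and Postn, encoding the matricellular protein periostin, rose 1.85-fold (adjusted p = 0.0106). The Postn call was lost without control replicate 3 or Dox replicate 3 (adjusted p up to 0.0558 over the alternatives). Of 17 matrix proteases and their inhibitors, 2 rose and 4 fell (35.3% called). Adamts1, a secreted protease that cleaves versican, rose 2.07-fold, from 6.35, 6.87 and 6.55 to 7.52, 7.70 and 7.70 (adjusted p = 3.64e-04). The plasminogen activator genes Plau and Plat fell 2.43-fold and 1.65-fold (adjusted p = 1.23e-04 and 0.00727), and Plaur, the receptor for the first, fell 1.63-fold (adjusted p = 0.00241). The inhibitor gene Timp3 rose 1.59-fold (adjusted p = 0.00281).

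**Figure D2:**
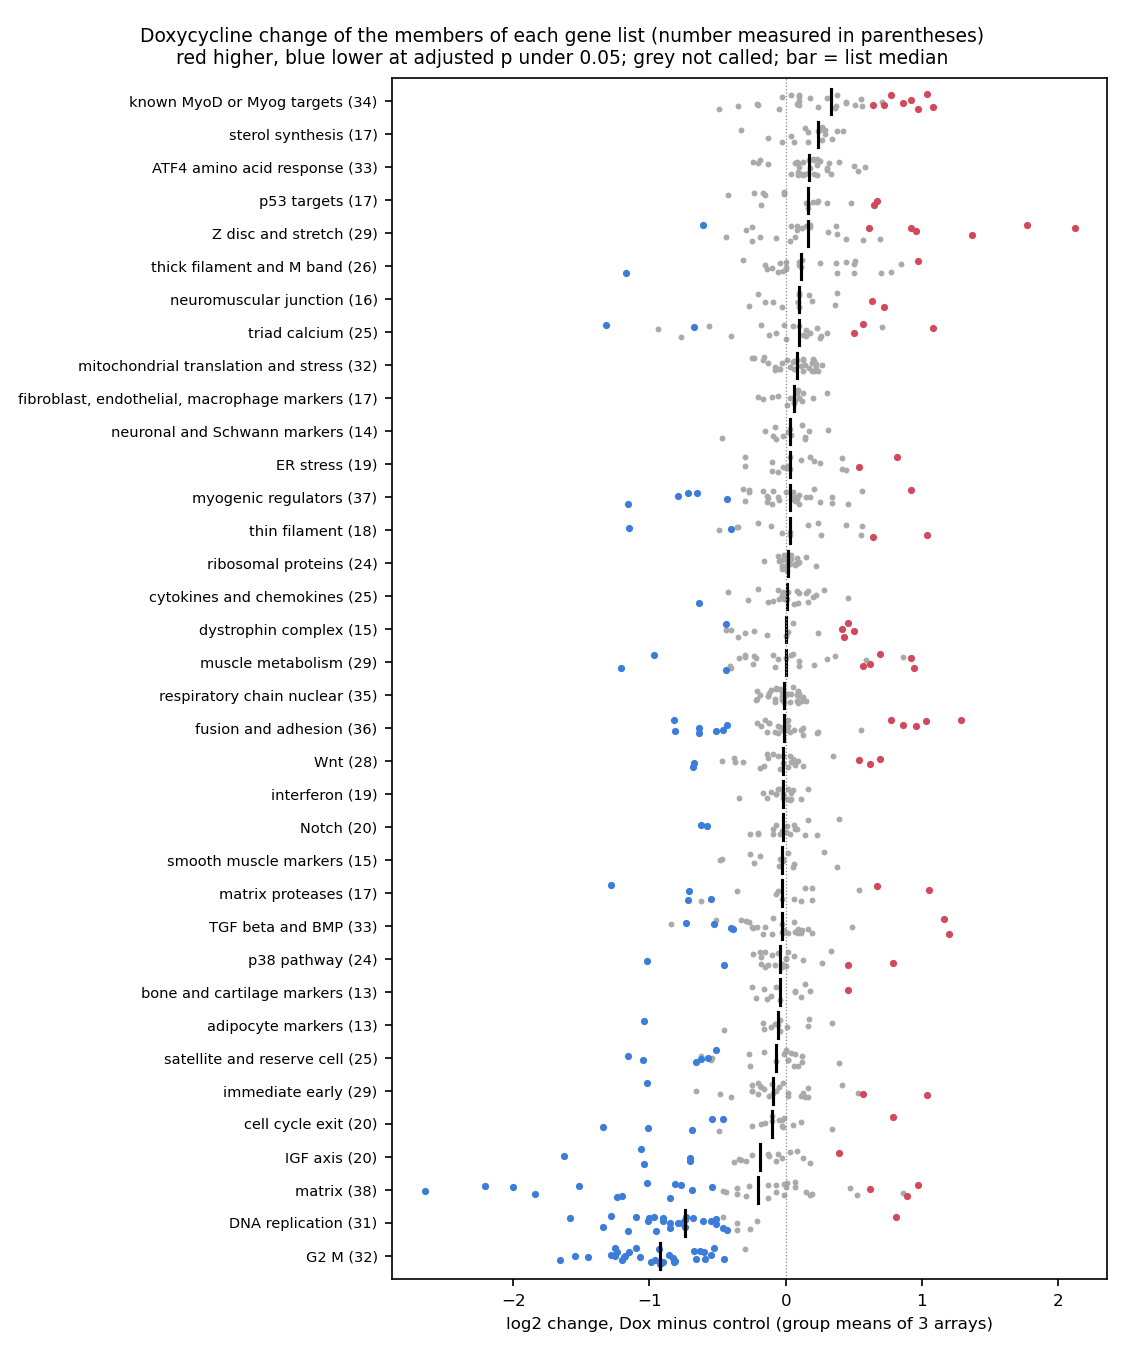
Log2 change from control to Dox of every measured member of the 36 gene lists, ordered by list median, with called members in red (higher) or blue (lower). The G2 and M list (median −0.92) and the DNA replication list (median −0.74) lie left of 0, and the known targets of MyoD or myogenin (median 0.33) have the highest median.

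Known targets of MyoD or myogenin rose in part. Of 34 measured, 8 rose and 0 fell (15 and 1 at an unadjusted p under 0.05 in limma), against 1.49% of all genes called higher, and the list median was 0.33. Of the 34, 33 had means above the array median, whereas the 1.49% also covers dim genes. The rises numbered 5 without control replicate 1, without control replicate 3 or without Dox replicate 2. Casq2, the cardiac and slow-muscle form of the calcium-binding protein calsequestrin, rose 2.12-fold, from 7.95, 8.39 and 7.88 to 8.91, 9.28 and 9.28 (adjusted p = 0.00427). Lmod2, which nucleates actin at thin-filament pointed ends, rose 2.06-fold, from 6.48, 6.76 and 6.51 to 7.38, 7.99 and 7.51 (adjusted p = 0.00153). Myl4, the embryonic and atrial light chain of myosin, rose 1.96-fold, from 9.78, 10.20 and 10.32 to 10.74, 11.21 and 11.26 (adjusted p = 0.00568), and the oxygen-binding protein gene Mb rose 1.89-fold (adjusted p = 0.00709). Other members of the list did not pass the test: skeletal actin Acta1 read 12.21, 12.31 and 12.01 in control and 12.40, 12.51 and 12.35 with doxycycline (difference 0.24, adjusted p = 0.462), and the muscle creatine kinase gene Ckm differed by 0.36 (adjusted p = 0.624).

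Sarcomere genes were called in both directions. In the Z-disc and stretch-response list of 29, 6 rose and 1 fell (24.1% called, against 5.50% of all genes), with a median of 0.16. Of the 29, 25 had means above the array median. The rises numbered 3 without control replicate 3, Dox replicate 2 or Dox replicate 3, and 0 fell without control replicate 1, control replicate 2 or Dox replicate 1. Besides Ankrd2, Myoz2, encoding a calcineurin-binding Z-disc protein, rose 3.41-fold, from 5.40, 6.39 and 6.26 to 7.03, 8.19 and 8.14 (adjusted p = 0.00575). Sorbs2, an adaptor of Z-discs and adhesions, rose 2.58-fold, from 5.98, 6.31 and 6.13 to 7.08, 7.40 and 8.04 (adjusted p = 8.61e-04). The groups did not overlap in either. Csrp3, which encodes muscle LIM protein, rose 1.90-fold (adjusted p = 0.0114), which did not hold without control replicate 3, Dox replicate 2 or Dox replicate 3 (adjusted p up to 0.0682 over the alternatives).

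Of 26 thick-filament and M-band genes, 1 rose (Myl4) and 1 fell, with a median of 0.11. That is 7.69% called, near the 5.50% of all genes. The rises numbered 4 without Dox replicate 1, and 2 without control replicate 2 or Dox replicate 3. They numbered 4 when only the 6 arrays were fitted and 7 with array weights, and without clusters below the 50th percentile 3 of the 15 left rose, with a median of 0.44. The gene that fell was Mybpc1, slow myosin-binding protein C, at 2.25-fold, from 6.09, 5.75 and 5.69 to 4.71, 4.91 and 4.38 (adjusted p = 0.00160). Myosin heavy chain genes did not pass the test: embryonic Myh3 read 9.70, 9.94 and 9.23 in control and 9.59, 10.70 and 9.72 with doxycycline (difference 0.37, adjusted p = 0.638), perinatal Myh8 differed by 0.38 (adjusted p = 0.237), and the adult forms Myh1, Myh2, Myh4 and Myh7 differed by −0.31, 0.11, 0.12 and −0.04. Of 18 thin-filament genes, 2 rose and 2 fell (22.2% called), each count being 1 without control replicate 1, Dox replicate 1 or Dox replicate 3. The rises numbered 1 without control replicate 3 or Dox replicate 2, and the falls numbered 1 without control replicate 2. The lowest was Tmod1, which caps actin pointed ends, at 2.22-fold lower, from 9.12, 8.95 and 8.51 to 7.60, 8.05 and 7.47 (adjusted p = 3.64e-04). Another cluster of Tmod1, which was not called, differed by −0.03. The troponin gene Tnni2 rose 1.56-fold (adjusted p = 0.0430) and the tropomyosin gene Tpm3 fell 1.32-fold (adjusted p = 0.0241), and each lost its call under several of the alternatives. The other 3 clusters of Tpm3 differed by −0.23, −0.20 and 0.04 and were not called.

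Of 25 genes of the triad and of calcium handling, 3 rose and 2 fell (20.0% called). Trdn, encoding the triad anchor triadin, fell 2.49-fold, from 8.91, 8.88 and 8.96 to 7.74, 7.51 and 7.55 (adjusted p = 0.00413), while its partner Casq2 rose. Trdn had 19 clusters, of which 9 were called lower and 0 higher, with differences from −1.65 to −0.21. Asph, whose locus also encodes the triad protein junctin, fell 1.59-fold (adjusted p = 0.00422). The calcium-calmodulin kinase gene Camk2a rose 1.49-fold (adjusted p = 0.00496).

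Of 16 genes of the neuromuscular junction, 2 rose and 0 fell (3 and 0 at an unadjusted p under 0.05 in limma). That is 12.5% called, with a median of 0.10. Among subunits of the acetylcholine receptor, Chrnb1, the β1 subunit, rose 1.65-fold, from 8.34, 8.68 and 8.37 to 9.13, 9.27 and 9.16 (adjusted p = 0.0127). Its Dox arrays stood above its control arrays. The α subunit gene Chrna1 differed by 0.10, the δ gene Chrnd by 0.10, the fetal γ gene Chrng by 0.38 and the adult ε gene Chrne by −0.03, and none of the 4 passed the test (adjusted p = 0.740, 0.883, 0.245 and 0.980). Ncam1, a neural cell adhesion molecule that myotubes also carry, rose 1.55-fold (adjusted p = 0.0132). The count of rises was 0 without control replicate 1, control replicate 3 or Dox replicate 2, and 1 without Dox replicate 3. Of 15 genes of the dystrophin complex, 4 rose and 1 fell (33.3% called). The rises, which included Dag1 (dystroglycan, 1.42-fold, adjusted p = 0.0474), numbered 0 without control replicate 1, control replicate 3 or Dox replicate 2 and 1 without Dox replicate 3. The fall, of the syntrophin gene Sntb2 at 1.36-fold (adjusted p = 0.00852), was lost without Dox replicate 3.

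Among 36 genes of fusion and adhesion, 5 rose and 7 fell (33.3% called), with a median of −0.01. The membrane fusogen genes were both called: Mymx read 6.94, 7.09 and 7.06 in control and 7.63, 8.05 and 7.99 with doxycycline, a 1.82-fold rise (adjusted p = 3.12e-04). Mymk rose 1.70-fold, from 10.78, 11.13 and 10.73 to 11.60, 11.80 and 11.56 (adjusted p = 0.0168). The Mymk call was lost without control replicate 1, control replicate 3 or Dox replicate 2 (adjusted p up to 0.0789 over the alternatives). Itga6, the laminin receptor subunit α6, rose 2.45-fold, from 8.13, 8.32 and 8.39 to 9.09, 9.77 and 9.86 (adjusted p = 4.64e-04). Dysf, which encodes the membrane repair protein dysferlin, rose 2.04-fold (adjusted p = 7.33e-04), and Adam12, a fusion-associated metalloprotease, rose 1.94-fold (adjusted p = 0.00579). Kirrel3, an immunoglobulin adhesion receptor, fell 1.77-fold (adjusted p = 8.78e-05), Dock1, a Rac activator needed for fusion, fell 1.76-fold (adjusted p = 4.64e-04), and the tetraspanin gene Cd9 fell 1.56-fold (adjusted p = 0.00333).

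Myogenic regulators and reserve-cell genes were called lower more often than higher, as were all genes tested (4.01% lower and 1.49% higher). Of 37 regulators, 1 rose and 5 fell (16.2% called), with a median of 0.03, and 31 had means above the array median. The falls numbered 3 without Dox replicate 2. Bhlhe40, a basic helix-loop-helix repressor, rose 1.89-fold, from 8.63, 8.83 and 8.47 to 9.52, 9.66 and 9.49 (adjusted p = 9.30e-04). Besides Myf5, Eya1, a transcriptional coactivator with phosphatase activity, fell 1.73-fold (adjusted p = 0.00239), and the E-protein gene Tcf4 fell 1.64-fold (adjusted p = 0.00210). Of 25 satellite and reserve-cell genes, 0 rose and 6 fell (1 and 10 at an unadjusted p under 0.05 in limma), with 3 called lower without Dox replicate 3. The list median was −0.07, and 10 of the 25 had a difference above 0. Cd34, a sialomucin of quiescent satellite cells, fell 2.07-fold, from 5.72, 5.38 and 6.29 to 4.74, 4.69 and 4.80 (adjusted p = 0.00141), and the syndecan gene Sdc4 fell 1.48-fold (adjusted p = 0.00218). Of the 6 myoblast and reserve-cell markers, 3 fell (Myf5, Cd34 and Sdc4) and 0 rose. Pax7 (−0.01, adjusted p = 0.995), Cdh15 (−0.21, adjusted p = 0.501) and Myod1 were not called. Of the 10 myotube markers, 1 rose (Mymk) and 0 fell, with a median of 0.31.

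In the insulin-like growth factor list of 20, 1 rose and 5 fell (30.0% called), with a median of −0.19. The falls numbered 3 without control replicate 1 or Dox replicate 3, and 0 rose without control replicate 1, control replicate 2, Dox replicate 1 or Dox replicate 3. Irs1, the docking protein below the insulin and IGF receptors, fell 3.09-fold, from 9.12, 8.70 and 8.64 to 7.34, 7.11 and 7.13 (adjusted p = 2.16e-05). Another cluster of Irs1 was also called lower, at −0.82 (adjusted p = 0.00683) against −1.63. The binding protein genes Igfbp2 and Igfbp5, which neighbour each other in RefSeq GRCm38.p6, fell 2.08-fold and 2.05-fold (adjusted p = 2.48e-04 and 0.00114). Igfbp5 read 11.91, 11.85 and 11.79 in control and 11.23, 10.53 and 10.69 with doxycycline. In the TGF-β and BMP list of 33, 2 rose and 4 fell (18.2% called). The falls numbered 2 without control replicate 1 or control replicate 2 and 1 without Dox replicate 3. Fst, encoding the activin and myostatin antagonist follistatin, rose 2.30-fold, from 5.53, 5.73 and 5.26 to 6.61, 7.11 and 6.42 (adjusted p = 4.53e-04). Ltbp2, a microfibril protein related to the latent TGF-β binding proteins, rose 2.24-fold, from 7.46, 7.53 and 7.34 to 8.61, 8.49 and 8.73 (adjusted p = 1.87e-04). The signal transducer gene Smad3 fell 1.66-fold (adjusted p = 9.58e-04).

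Of 28 Wnt genes, 3 rose and 2 fell (17.9% called). The rises numbered 0 without control replicate 1 and 1 without Dox replicate 2 or Dox replicate 3. The genes that fell were the repressor gene Tcf7l1, at 1.61-fold lower (adjusted p = 7.52e-04), and the Wnt enhancer gene Rspo3, at 1.59-fold lower (adjusted p = 0.00693). Klf4, a zinc-finger factor of the immediate early list, rose 2.06-fold, from 6.89, 7.03 and 7.43 to 7.99, 7.99 and 8.49 (adjusted p = 0.00106). In muscle metabolism, 5 of 29 rose and 3 fell (27.6% called). Enzymes that build and break down glycogen moved in opposite directions: Gys1, glycogen synthase, rose 1.92-fold, from 8.55, 8.87 and 8.44 to 9.27, 9.91 and 9.49 (adjusted p = 0.00302), and Pygm, muscle glycogen phosphorylase, fell 2.31-fold, from 8.09, 8.10 and 7.87 to 6.61, 7.05 and 6.76 (adjusted p = 4.91e-04). Without control replicate 1 or Dox replicate 3, 2 of the list rose and 1 fell. The rises numbered 3 without control replicate 2, control replicate 3, Dox replicate 1 or Dox replicate 2, and the falls numbered 1 without control replicate 2 or Dox replicate 1.

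In the p38 pathway list of 24, 2 rose and 2 fell (16.7% called, against 5.50% of all genes), with a median of −0.04. Of the 24, 19 had means above the array median, whereas the 5.50% also covers dim genes. The same limit applies to the shares given below for the immediate early, Notch, p53 and endoplasmic reticulum stress lists. Dusp1, a phosphatase that switches off MAP kinases, fell 2.02-fold, from 8.42, 8.67 and 8.07 to 7.06, 8.02 and 7.01 (adjusted p = 0.0310), with each Dox array below each control array. Its call was lost without control replicate 1, control replicate 2, Dox replicate 1 or Dox replicate 3 (adjusted p up to 0.164 over the alternatives). Map2k6, an activating kinase of p38, fell 1.36-fold (adjusted p = 0.0435), which did not hold when any 1 of the 6 arrays was left out. The rises in this list numbered 1 without control replicate 1, control replicate 3 or any Dox array. The falls numbered 1 without control replicate 3 or Dox replicate 2 and 0 without any of the other 4 arrays. Of 29 immediate early genes 2 rose, Klf4 and Junb, and Dusp1 fell (10.3% called). Junb rose 1.49-fold (adjusted p = 0.0219), which did not hold without control replicate 1, control replicate 3, Dox replicate 1 or Dox replicate 2.

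Of 20 Notch genes, 0 rose and 2 fell, which is 10.0% called (1 and 2 at an unadjusted p under 0.05 in limma). These were the receptor genes Notch3, from 7.51, 7.89 and 7.21 to 6.87, 7.06 and 6.82 (adjusted p = 0.0150), and Notch2, which fell 1.49-fold (adjusted p = 0.0313). No fall was called without control replicate 2, Dox replicate 1 or Dox replicate 3, and 1 was called without control replicate 1 or Dox replicate 2. Of 17 p53 targets 2 were called (11.8%), both higher, with Plk2, a polo-like kinase, 1.59-fold higher at 9.53, 9.94 and 9.98 against 9.04, 9.24 and 9.15 in control (adjusted p = 0.00254). The count was 1 without control replicate 3 or Dox replicate 3. Of 19 genes of endoplasmic reticulum stress, 2 were called (10.5%): Herpud1 and Dnajb9, which serve protein degradation and folding there, rose 1.46-fold and 1.77-fold (adjusted p = 0.0274 and 0.0493). The count was 0 without control replicate 1, control replicate 2 or Dox replicate 3 and 1 without Dox replicate 1 or Dox replicate 2. Of 25 cytokine and chemokine genes, Cxcl12, a chemoattractant of muscle precursors, fell 1.56-fold, from 5.32, 5.37 and 5.47 to 5.04, 4.47 and 4.72 (adjusted p = 0.00747).

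Several programs had no called member in limma with Benjamini-Hochberg adjustment. Of 33 genes of the ATF4 amino acid response 0 were called (7 higher and 0 lower at an unadjusted p under 0.05), the median was 0.17, and 2 were called higher without control replicate 3. Over the other settings the count of rises ran from 0 to 5, with 4 under array weights. Of 35 nuclear respiratory chain genes 0 were called (0 at an unadjusted p under 0.05), and of 24 ribosomal protein genes 0 (1 higher unadjusted). The lists of mitochondrial translation and stress (32 genes), sterol synthesis (17) and interferon response (19) also had 0 called, against 6, 4 and 1 at an unadjusted p under 0.05. Of the 19 interferon genes, 5 had means above the array median. In sterol synthesis 1 gene was called lower without control replicate 3.

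Markers of other cell types were compared in the same way. The 17 fibroblast, endothelial and macrophage markers had list means of 4.0 to 4.10 on control and 4.03 to 4.17 on Dox arrays, with 0 called (1 at an unadjusted p under 0.05) and 0 above the array median. Of 15 smooth muscle markers 0 were called (4 unadjusted), and of 14 neuronal and Schwann markers 0 (1 unadjusted). Of these, 9 smooth muscle and 4 neuronal and Schwann markers had means above the array median. The smooth muscle list had 1 called lower without control replicate 3 or Dox replicate 1, and the neuronal list 1 without control replicate 1. Of 13 adipocyte markers 1 was called (7.69%, near the 5.50% of all genes), and 3 had means above the array median. Cd36, a fatty acid translocase that muscle also expresses, fell 2.06-fold (adjusted p = 0.00835). It read 4.52, 4.51 and 4.43 in control and 3.35, 3.47 and 3.51 with doxycycline, all below the array medians. Of 13 bone and cartilage markers 1 was called (also 7.69%), and 3 had means above the array median. Sox9, a chondrogenic transcription factor, rose 1.38-fold (adjusted p = 0.0305). It did not pass without control replicate 3, Dox replicate 1 or Dox replicate 2, nor under 3 of the other settings.

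**Figure D3:**
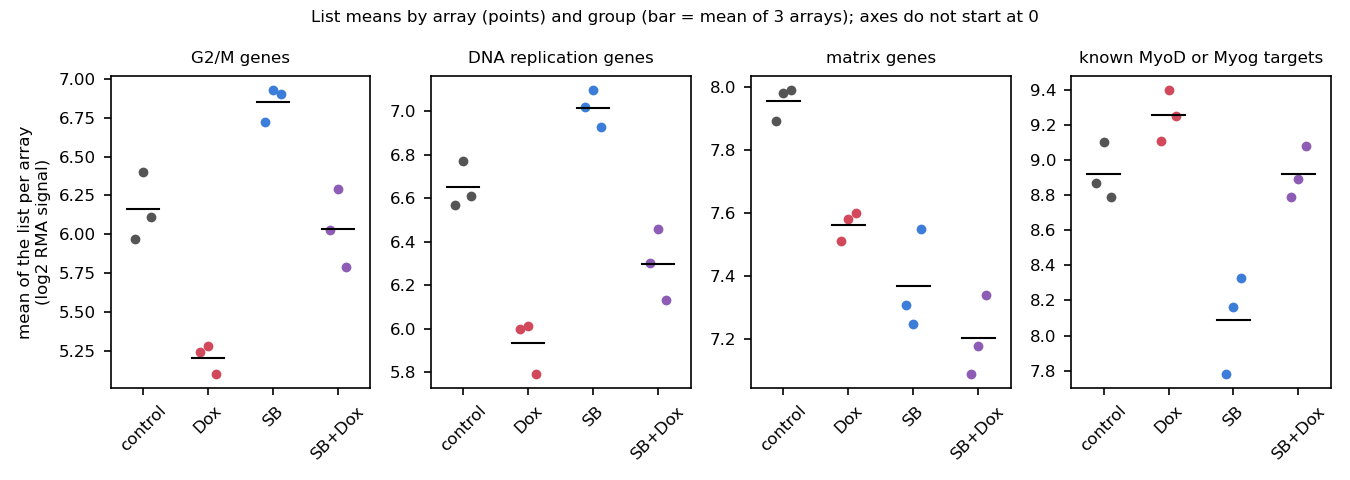
Mean log2 signal of 4 gene lists on each of the 12 arrays, with a bar at each group mean. Dox arrays lie below control arrays in the G2 and M list (5.10 to 5.28 against 5.97 to 6.40) and SB+Dox arrays (5.79 to 6.29) lie below SB arrays (6.72 to 6.93).

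Doxycycline was also given with SB203580 present, compared as SB+Dox against SB on 6 other arrays, although the model gives both comparisons a common estimate of variance. Myog read 6.93, 7.96 and 8.21 in SB and 8.10, 8.23 and 8.68 in SB+Dox, with overlapping arrays (difference 0.64, adjusted p = 0.157), and each of these 6 values was below the lowest control array at 9.66. In that comparison 1466 of 19938 genes were called (7.35%), 905 higher (4.54%) and 561 lower (2.81%). Of the 297 genes raised without inhibitor, 114 were also raised with it (38.4% of the 297 and 12.6% of the 905), and 2 were lowered. Of the 799 lowered, 314 were also lowered (39.3% of the 799 and 56.0% of the 561), and 10 were raised. Over the 1096 genes the changes of both comparisons correlated at r = 0.70, and over all genes at 0.44, as a description across genes. The interaction, which tests the difference between both changes, was called for 187 genes (0.938%) and, over clusters, for 195 of 21789 (0.895%). This last count rested on single arrays: it lay between 27 (without SB replicate 2) and 352 (without SB replicate 3) when 1 of the 12 arrays was left out, and was 28 without SB+Dox replicate 3 and 47 without control replicate 1. Of the 187 genes, 118 were among the 1096. In 28 of the 34 raised genes with a called interaction, and in all 84 of the lowered ones, the difference had the sign opposite to the change without inhibitor, which enters both quantities and by which these genes were chosen.

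The genes raised most without inhibitor were divided by this test. R3hdml read 5.02, 5.11 and 4.81 in SB and 4.89, 5.09 and 5.39 in SB+Dox, a change of 0.14 against 3.22 without inhibitor (interaction −3.07, adjusted p = 0.00381). Ctrb1 read 5.80, 6.10 and 5.65 in SB and 5.70, 5.95 and 5.68 in SB+Dox (interaction −2.52, adjusted p = 0.00253). Adamtsl2 changed by −0.10 with the inhibitor against 1.96 without it (interaction adjusted p = 0.00673). Each of these kept its interaction call when any 1 of the 12 arrays was left out, and Anxa8 (−0.07 against 2.72, adjusted p = 0.0150) kept it in 10 of 12. By contrast Ankrd2 changed by 2.35 with the inhibitor, from 5.68, 5.55 and 5.34 to 7.37, 7.98 and 8.26, and by 2.12 without it (interaction 0.23, adjusted p = 0.880). Atp1b1 changed by 1.88 and 1.91 (interaction −0.04 ± 0.34 SE, adjusted p = 0.979). For these a difference between both changes was not detected, which does not show that they were equal.

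Among lowered genes, Tmod1 went in opposite directions: it rose by 0.68 with the inhibitor (adjusted p = 0.0139), from 9.49, 9.49 and 9.55 to 10.10, 10.20 and 10.27, and fell by 1.15 without it (interaction 1.83, adjusted p = 0.00253). These values are of its brightest cluster, and its other cluster did not fall detectably without the inhibitor (−0.03, adjusted p = 0.966). Pygm changed by 0.35 against −1.21 (interaction adjusted p = 0.0122) and Ccnd1 by 0.02 against −1.34 (interaction adjusted p = 0.0135). Sema3c changed by −0.68 with the inhibitor and by −2.27 without it (interaction 1.59, adjusted p = 0.0150). Rrm2, the replication gene that rose without inhibitor, fell with it, from 7.67, 7.95 and 7.67 to 6.95, 7.22 and 6.73 (−0.79, adjusted p = 0.00695; interaction −1.60, adjusted p = 0.00852).

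The cell-cycle lists fell in both settings. With the inhibitor, 32 of 32 G2 and M genes and 23 of 31 replication genes were called lower, with medians of −0.79 and −0.75, and the interaction was called for 0 (2 at an unadjusted p under 0.05 in limma) and 1 of them. The ATF4 list differed more: 27 of its 33 genes were called higher with the inhibitor (median 1.04) against 0 without it (0 to 5 over the settings tried), and the interaction was called for 10. Known targets of MyoD or myogenin had 17 of 34 called higher with the inhibitor (median 0.62), with list means of 7.78 to 8.33 in SB, 8.79 to 9.08 in SB+Dox, 8.79 to 9.10 in control and 9.11 to 9.40 in Dox. Of these 34 genes, 3 had a called interaction.

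**Figure D4:**
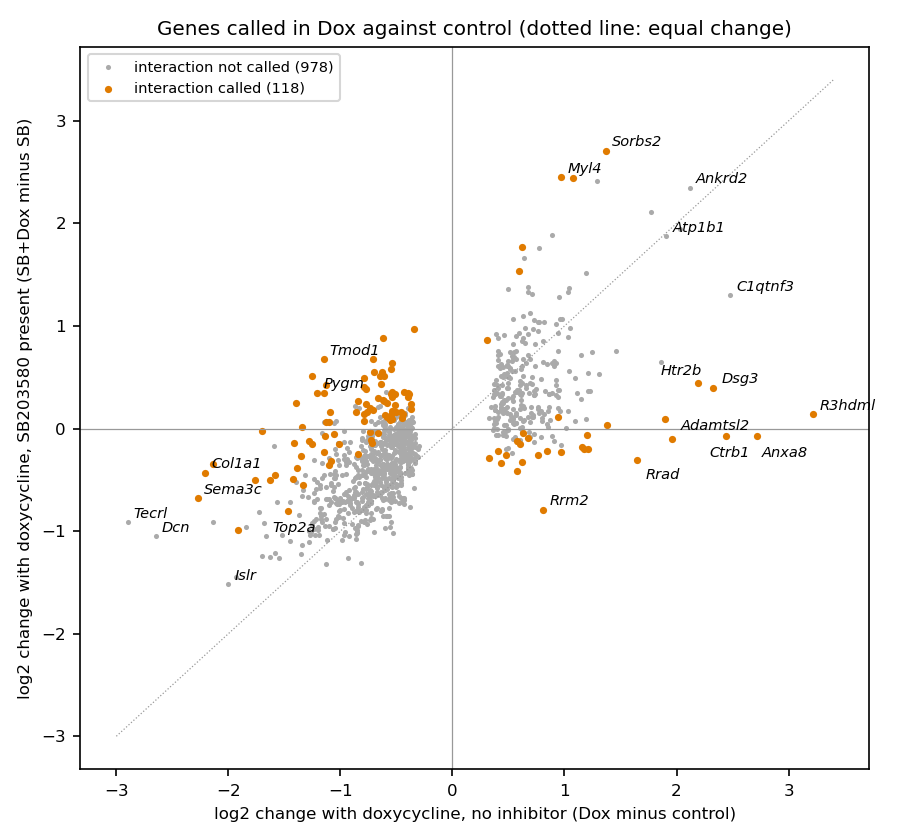
Log2 change with doxycycline for the 1096 genes called in Dox against control, without the inhibitor on the x axis and with SB203580 on the y axis, and with the 118 genes whose interaction was called in orange. R3hdml, Ctrb1 and Anxa8 lie near 0 on the y axis, Ankrd2 and Atp1b1 lie near the dotted line of equal change, and Tmod1 and Rrm2 lie on opposite sides of 0 on both axes.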

How the data were processed

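Total RNA from 12 samples labelled as 4 groups of 3 was hybridised to Affymetrix whole-transcript arrays. The values deposited by the authors are log2 signals, 1 per transcript cluster and array, made with RMA in Affymetrix Expression Console per the submitters' processing notes. Versions and genome build are not given in the sources used here. Of 35557 clusters, 1621 with several gene symbols and 12147 with none were left out. limma 3.58.1 (R 4.3.3) estimated 4 group means from all 12 arrays, so that the groups share 1 variance per cluster (eBayes without trend, 8 residual and 6.56 prior degrees of freedom). P-values were adjusted by Benjamini-Hochberg over 21789 clusters within each comparison, and calls were made below an adjusted p of 0.05. The gene value is that of the cluster with the highest mean over the 12 arrays. The fit was tested on simulated data.

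The members and the 36 gene lists (875 of 933 memberships measured) were chosen with earlier results of these data known. Genes were named by a rule: Myog, Myod1, Myf5, Myf6 and Mef2c, the myosin heavy chain and acetylcholine receptor genes, the 12 highest and 12 lowest called genes, at most 4 called genes per list (its largest change where no gene was called), and 6 genes of the interaction. Others (such as Rrm2, Mki67, Gja1 and Fscn1) were chosen after their values were seen. Arrays have no read depth, and 3 arrays per group limit the precision.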

Additional observations from a re-analysis of the deposited data

Results flagged for a closer look

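For the genes below the change with doxycycline differed between cells with and without SB203580, by the interaction term in limma (Benjamini-Hochberg adjusted p under 0.05), and the value given is the change with the inhibitor minus the change without it on the log2 scale. Negative values among genes raised without inhibitor were R3hdml −3.07, Anxa8 −2.79, Ctrb1 −2.52, Adamtsl2 −2.06, Rrad −1.95, Dsg3 −1.92, Serpinb9e −1.81, Htr2b −1.75, Ltbp2 −1.34 and Fst −1.27. Positive values among genes raised without inhibitor were Myl4 1.48, Casq2 1.35 and Sorbs2 1.35.

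Among genes lowered without inhibitor the differences were positive: Tmod1 1.83, Aspn 1.80, Col1a1 1.78, Sema3c 1.59, Pygm 1.56, Ccnd1 1.36, Lrrc17 1.25, Plau 1.17, Irs1 1.13, Gas1 0.92 and Sntb2 0.59. Dhrs9, a retinol dehydrogenase, was not called without inhibitor (−0.23, adjusted p = 0.895) and had a difference of 2.64. Genes singled out after their values were seen gave Rrm2 −1.60, Lamb3 −1.41, Sgk1 −1.35, Col18a1 −1.20, Col11a1 −0.95 and Timp3 −0.76 among the raised, with Cox6a2 at 1.16. Among the lowered they gave Car2 1.67, Sema3d 1.25, Cdk6 0.90 and Fscn1 0.67.

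Some of these calls rest on few arrays. When each of the 12 arrays was left out in turn, the interaction call held in 12 of 12 runs for R3hdml, Ctrb1, Adamtsl2, Dsg3, Serpinb9e, Ltbp2, Lamb3, Rrm2, Pygm and Tmod1. It held in 1 run for Casq2, Lrrc17, Sema3d and Sntb2, in 0 for Timp3, in 2 for Gas1, Sorbs2, Cox6a2 and Fscn1 and in 3 for Col1a1. Over all 21 settings Tmod1 alone of these 36 genes kept its interaction call, with adjusted p up to 0.0494. Every setting read the brightest Tmod1 cluster. The other cluster, which differed by −0.03 between Dox and control, was not examined for the interaction.

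Clusters with several gene symbols lay outside the comparisons. When they were tested, 38 of 1621 were called in Dox against control (2.34%), 8 higher and 30 lower.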

How the results depend on the processing

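The count of 1156 called clusters became 1831 with array weights and 744 to 993 when 1 of the 6 arrays was left out, and no called cluster changed sign under any alternative. Testing every cluster of the table gave 816, of which 703 were among the 1156. The replicate number as a block gave 1435, and with it 5 genes of the ATF4 list and 4 of the thick-filament list were called higher. Same-number control and Dox arrays correlated at 0.01, 0.18 and 0.39 after group means were removed, and arrays of unlike number at −0.32 to 0.24. Control replicates 2 and 3 correlated best with the Dox array of their own number, and control replicate 1 with Dox replicate 2 (0.24). These values do not settle whether the numbers mark pairs. The main model did not take them as pairs, so its counts may differ from those of a paired design. The interaction was less stable: 195 clusters were called, against 421 with the replicate block, 84 after quantile normalization, 301 without clusters below the 50th percentile, 678 with array weights, 6 with every cluster of the table, and 27 to 352 when 1 of the 12 arrays was left out. The causes were not tested. Of 100 called genes named by the rule, 73 kept their call in every setting that could test them (16 at most), 27 lost it in at least 1 and 0 reversed. Uncalled genes whose sign changed when 1 array was left out were Chrne (−0.11 to 0.03, above 0 without control replicate 1, control replicate 3 or Dox replicate 1), Dhrs9 (−0.63 to 0.20, above 0 without control replicate 3 or Dox replicate 2), Myod1 (−0.05 to 0.21, below 0 without control replicate 3), Myh2 (−0.08 to 0.23, below 0 without Dox replicate 2) and Myh4 (−0.03 to 0.27, below 0 without Dox replicate 3).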

Other observations

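Gene families outside the lists were described after their values were seen, so the counts are given with no test of the family. Over all genes tested 5.50% were called, 1.49% higher and 4.01% lower. Of 16 carbonic anhydrase genes, 4 were called, all lower (limma, Benjamini-Hochberg). Car3 fell 4.40-fold, Car2 fell 3.24-fold, from 6.41, 5.79 and 5.68 to 4.42, 4.54 and 3.83 (adjusted p = 2.64e-04), Car13 fell 2.98-fold, from 10.03, 9.45 and 9.23 to 8.39, 7.97 and 7.63 (adjusted p = 3.64e-04), and Car1 fell 2.64-fold (adjusted p = 9.56e-05). These 4 are the protein-coding genes of an uninterrupted stretch in RefSeq GRCm38.p6, and the family median was −0.02. With SB203580 present, Car1, Car13 and Car3 changed by −0.52, −0.72 and −0.91 and did not pass (adjusted p = 0.0510, 0.0540 and 0.0725), and Car2 changed by −0.02 (adjusted p = 0.964).

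Of 52 semaphorins, ephrins, plexins, neuropilins and Eph receptors, which guide axons and migrating cells, 14 fell and 2 rose (30.8% called), with a median of −0.10. The members named here were chosen among those that fell. Besides Sema3c, Sema3d fell 2.13-fold (adjusted p = 0.00235), the membrane ligand gene Efnb2 fell 2.07-fold, from 8.11, 8.02 and 8.06 to 7.01, 6.91 and 7.12 (adjusted p = 1.98e-05), and the Eph receptor gene Epha3 fell 2.07-fold (adjusted p = 3.64e-04). The co-receptor genes Nrp1 and Nrp2 fell 1.73-fold and 1.78-fold (adjusted p = 0.00397 and 0.00657). Gfra1, a receptor for the neurotrophic factor GDNF, fell 3.21-fold, from 7.57, 7.49 and 7.08 to 5.84, 5.89 and 5.36 (adjusted p = 2.16e-05).

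Of 30 linker and core histone genes chosen by their symbols, 8 fell and 2 rose (33.3% called), with a median of −0.21. The linker histone gene H1f5 fell 2.20-fold (adjusted p = 4.87e-04) and H4c6 fell 2.18-fold (adjusted p = 8.55e-04). In the opposite direction H2bc4 rose 2.32-fold, from 6.31, 6.46 and 5.90 to 7.68, 7.59 and 7.03 (adjusted p = 0.00239), and the linker histone gene H1f2 rose 2.14-fold, from 7.67, 7.81 and 6.99 to 8.80, 8.72 and 8.22 (adjusted p = 0.00475). With SB203580 present, 13 of the 30 were called lower, against 2.81% of all genes in that comparison. Histone genes of a type are near-identical copies, and how far probes read several of them was not tested.

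Lamb3, a laminin chain of epithelial basement membranes, rose 2.31-fold, from 5.41, 5.54 and 5.64 to 6.94, 6.47 and 6.79 (adjusted p = 1.69e-04), and the kinase gene Sgk1 rose 2.60-fold, from 5.53, 5.79 and 5.25 to 6.53, 7.04 and 7.14 (adjusted p = 3.28e-04). With the inhibitor they changed by −0.20 and 0.03.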
